A study of Mus musculus with 32 samples.

Results

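Collagen genes were followed in the tibialis anterior (TA) muscle of *Mtm1* KO and wild-type (WT) mice. *Mtm1* encodes myotubularin, a phosphoinositide phosphatase whose loss causes X-linked myotubular myopathy. The members were the genes whose symbol is Col, a number, a and a number, kept where at least 10 counts were found in at least 4 libraries. Of 54838 genes in the table, 44 had such a symbol and all 44 were kept. The *Mtm1* KO line lacks exon 4 of *Mtm1* and was carried on C57BL6/J, the strain that the labels name for every library. The KO mice were *Mtm1* -/y males and the WT mice were their littermates, with no other allele or treatment in either group. Poly(A) RNA of whole TA muscle was sequenced at P1, P14, P21 and P35 (days after birth), with n=4 libraries of each genotype at each age and 32 libraries in all. The KO is constitutive, so every cell type in the muscle lacked myotubularin, and fewer cells of a type and less RNA per cell cannot be told apart in whole-muscle RNA.

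Collagens are extracellular proteins built as trimers of chains wound into a triple helix. In skeletal muscle, fibroblasts and fibro-adipogenic progenitors make most of the fibrillar collagens of the endomysium and perimysium, while the basement membrane around each fibre and capillary holds type IV collagen networks and is linked to the interstitium by type VI microfibrils. Mutations in type VI collagen genes cause Ullrich and Bethlem muscular dystrophy. The TA muscle carries a tendon at its distal end, rich in types I and XII, with type XXII at the myotendinous junction. The 44 genes comprised 11 fibrillar chains, 6 basement membrane chains of type IV, 6 beaded filament chains of type VI, 3 hexagonal network chains (types VIII and X), 9 fibril-associated chains (FACITs), 4 transmembrane chains, 2 multiplexins, the anchoring fibril chain *Col7a1*, and *Col26a1* and *Col28a1*.

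Expected counts summed to 49321035 to 85631408 per library. CPM are counts scaled to library totals adjusted by TMM, the scaling factors of edgeR. From P14 on, *Mtm1* mRNA itself lay between 18.9 and 24.9 CPM in WT libraries and between 2.64 and 4.51 in KO libraries. At P1, WT libraries held 5.26 to 6.02 CPM and KO libraries 2.32 to 3.91 CPM. The 6 muscle fibre markers (*Acta1*, *Ckm*, *Mylpf*, *Tnnt3*, *Des* and *Pvalb*) summed to at least 19020 CPM in every library. At P35 they summed to 74720 to 113100 CPM in WT and to 52960 to 74510 CPM in KO, with no overlap. *Des* went the other way, at 2438 to 2816 CPM in WT and 3955 to 5128 CPM in KO. Several libraries stood apart in genes of neighbouring tissue. At P1 the 8 keratinocyte markers summed to between 1901 and 7006 CPM, against at most 8.1 CPM in any later library. KO P35 replicate 2 held 84.7 CPM of the 6 osteoblast and bone markers and 47.9 CPM of the 7 chondrocyte markers, against at most 23.0 and 15.8 CPM in the other KO P35 libraries. At P35 the chondrocyte markers summed to 4.89 to 8.98 CPM in WT and to 11.1 to 47.9 CPM in KO, with no overlap. The bone markers summed to 14.8 to 18.8 CPM in WT and to 9.27 to 84.7 CPM in KO, and overlapped. By the edgeR test described below, *Sox9*, *Dmp1* and *Phex* were higher in KO at P35, where 8.49% of all genes were. At P21 *Dmp1* was higher and *Alpl* lower, against 3.18% and 1.5% of all genes. At P21 the 5 tenocyte markers (*Tnmd*, *Scx*, *Mkx*, *Thbs4* and *Kera*) summed to 16.8, 214.7, 53.0 and 307.8 CPM in WT replicates 1 to 4 and to 105.1, 178.4, 463.4 and 150.0 CPM in KO replicates 1 to 4. *Thbs4* made up most of these sums. In KO replicate 2 it was at 155.2 CPM, with *Tnmd* at 4.60 and *Kera* at 2.27 CPM. In WT replicate 2 it was at 146.8 CPM, with *Tnmd* at 27.7 and *Kera* at 31.0 CPM.

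The upstream sequences of *Col8a1* and *Col7a1* are shown because these were the collagen genes higher in KO at both P21 and P35, and the interval between the *Col4a4* and *Col4a3* starts is shown because these adjoining genes were both lower in KO at P35. They were taken from RefSeq on GRCm38.p6, where 35 of the 44 members had an entry. *Col8a1* is read on the minus strand from chr16:57754738-57754937, *Col7a1* on the plus strand from chr9:108953386-108953585, and the *Col4a4*-*Col4a3* interval on the plus strand from chr1:82586850-82586920, each 5′ to 3′ and ending at the base before the annotated start of *Col8a1*, *Col7a1* or *Col4a3*. Capitals mark matches, on either strand, to the TATA box (TATAAA), the CCAAT box, the GC box (GGGCGG) or the AP-1 motif (TGANTCA).
Col8a1: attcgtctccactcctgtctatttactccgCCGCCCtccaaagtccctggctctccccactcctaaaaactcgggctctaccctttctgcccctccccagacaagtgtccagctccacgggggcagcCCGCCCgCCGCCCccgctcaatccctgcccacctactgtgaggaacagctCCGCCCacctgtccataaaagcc
Col7a1: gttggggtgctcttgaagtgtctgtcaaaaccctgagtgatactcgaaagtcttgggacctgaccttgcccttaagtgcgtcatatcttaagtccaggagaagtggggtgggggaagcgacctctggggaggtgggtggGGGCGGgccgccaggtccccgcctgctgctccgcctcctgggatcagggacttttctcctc
Col4a4-Col4a3: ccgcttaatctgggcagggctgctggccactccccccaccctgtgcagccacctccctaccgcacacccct
The *Col8a1* window held 4 GC boxes and the *Col7a1* window held 1, and neither held the other motifs. Of the 32851 promoters of the same 200 bases, 31.05% held the GC box, 29.35% the CCAAT box, 9.96% the TATA box and 5.48% the AP-1 motif. Among the 35 collagen genes with an entry, 21 held the GC box, 9 the CCAAT box, 4 the TATA box and 1 the AP-1 motif. The interval of 71 bases between *Col4a4* and *Col4a3*, which are read away from each other, held none of the 4. In the last 71 bases before the starts of all promoters, 20.7% held the GC box, 13.3% the CCAAT box, 4.41% the TATA box and 1.86% the AP-1 motif.

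Levels of the 44 genes spanned several orders of magnitude, and a handful of chains made up most collagen mRNA. Per kb of the main transcript and over all 32 libraries, *Col1a2* averaged 591 CPM per kb, *Col1a1* 563 CPM per kb and *Col3a1* 556 CPM per kb. These are the chains of type I and type III fibrils, and they were followed by *Col4a1* at 154 CPM per kb, *Col6a2* at 98.5, *Col6a1* at 96.9, *Col4a2* at 93.4 and the multiplexin *Col15a1* at 46.7 CPM per kb. This order held for the pooled libraries and changed with age. In WT the highest mean was that of *Col1a1* at P1 (1333 ± 299.7 CPM per kb), of *Col3a1* at P14 (555 ± 135) and P21 (374 ± 32.8) and of *Col1a2* at P35 (342 ± 96.1), and at P1 *Col6a1* (223 ± 20) and *Col6a2* (219 ± 21.1) lay above *Col4a1* (184 ± 9.47). The lowest was *Col6a4*, at 0.0577 CPM per kb. All collagen genes together held 2.96% ± 0.328 (SD, n=4) of CPM in WT against 2.55% ± 0.495 in KO at P1. The share was 1.35% ± 0.299 in WT and 1.18% ± 0.274 in KO at P14, 0.985% ± 0.232 and 1.05% ± 0.276 at P21, and 0.717% ± 0.106 and 0.707% ± 0.169 at P35. The genotypes overlapped at every age, whereas the P1 libraries of both genotypes, at 1.90% or more, stood above all later ones.

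**Figure D1:**
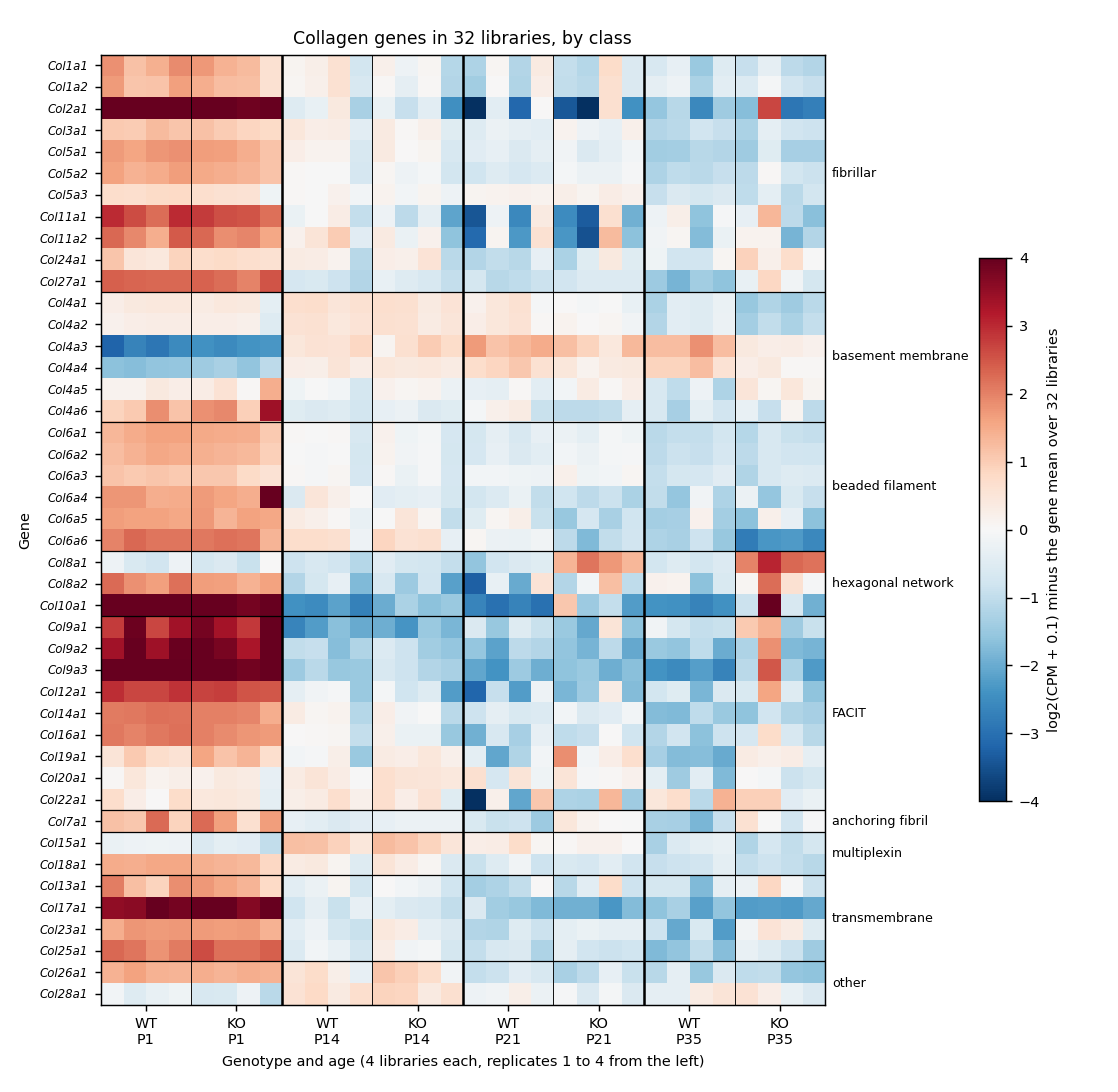
Each row is 1 of the 44 collagen genes and each column 1 of 32 libraries, coloured by log2(CPM + 0.1) minus the mean of the gene over all libraries, with values beyond 4 on either side in the darkest colour. The P1 columns stand apart from the rest, *Col4a3* and *Col4a4* are lowest at P1, *Col8a1* is highest in KO at P21 and P35, and KO P35 replicate 2 is high in the cartilage collagens *Col2a1*, *Col9a3* and *Col10a1*.

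From P1 to P14, most collagen genes fell in both genotypes. Differentially expressed genes (DEGs) were called by edgeR's quasi-likelihood test within the 2 groups compared, at a Benjamini-Hochberg adjusted *P*-value under 0.01 over all genes tested and a change of over 1.5-fold either way. In WT 32 of the 44 genes fell and 4 rose, and in KO 31 fell and 4 rose. Of all genes tested, 30.4% fell and 24.7% rose in WT, and 29.1% fell and 23.5% rose in KO. The median log2 fold change of the collagen genes was -1.64 in WT and -1.55 in KO, against -0.080 and -0.095 for all genes tested. *Col10a1* and *Col6a4* reached 10 counts in only 14 and 10 of the 32 libraries. *Col6a4* was kept through its P1 levels. For *Col10a1*, the libraries after P1 that reached 10 counts were all KO. Among the 42 members also tested at later ages, 30 fell and 4 rose in WT and 29 fell and 4 rose in KO, with medians of -1.61 and -1.52. With library totals in place of TMM scaling the median of all genes moved by -0.77 in WT and -0.71 in KO, so the changes are relative to that shift.

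All 6 type VI chains fell in both genotypes, *Col6a4* to between 4 and 17 counts per library at P14. *Col1a1*, which encodes the main chain of type I collagen, fell by 1.48 on the log2 scale in WT (SE 0.282, adjusted *P*=8.2e-04 by edgeR). In KO it fell by 1.51 (SE 0.333, adjusted *P*=0.0023). *Col10a1*, the collagen of hypertrophic cartilage, was at 18.4 to 37.3 CPM in WT at P1 and at 0.0209 to 0.0776 CPM at P14, where it had 1 to 4 counts per library, so no fold is given. It lies inside *Nt5dc1* on the other strand, and the use of strand in counting was not given, so its low values are uncertain. Among the members tested at later ages, those that fell furthest in WT were the type IX chains *Col9a3* (log2 fold change -6.09), *Col9a1* (-5.57) and *Col9a2* (-5.08), the cartilage fibril chain *Col2a1* (-4.92) and the hemidesmosomal *Col17a1* of skin (-4.81). Beside these, the chondrocyte markers summed to 62.2 to 145.8 CPM at P1 and to 5.0 to 9.7 CPM at P14, the bone markers to 100 to 381.0 CPM at P1 and to 7.4 to 10.3 CPM at P14, and the keratinocyte markers as given above. The part of these tissues in the P1 levels was not tested.

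The 4 genes that rose from P1 to P14 did so in both genotypes. *Col4a3*, a chain of the α3α4α5 type IV network, was at 0.096 to 0.214 CPM in the 4 WT libraries at P1 and at 2.40 to 3.16 CPM at P14, a log2 fold change of 4.04 (SE 0.229) in WT and 3.50 (SE 0.237) in KO. *Col4a4*, its partner chain, rose by 2.06 (SE 0.123) in WT and 1.78 (SE 0.156) in KO. *Col15a1*, a multiplexin of the muscle and capillary basement membrane zone, rose by 1.17 in WT and 1.53 in KO, and *Col28a1*, a collagen described around Schwann cells, rose by 0.89 and 1.31. The Schwann cell markers summed to 74.8 to 200 CPM at P1 and to 402.3 to 927.6 CPM at P14. The endothelial markers summed to 258.8 to 424.8 CPM at P1 and to 580.9 to 765.1 CPM at P14, and the part of either cell type was not tested.

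After P14 the age steps called fewer members. From P14 to P21 *Col4a3* rose further in WT (0.82, SE 0.152) and *Col26a1* and *Col28a1* fell, among all genes tested 2.93% rising and 2.6% falling. In KO, *Col8a1* rose (2.37, SE 0.193, adjusted *P*=3.5e-04 by edgeR) and 6 members fell, *Col6a6*, *Col26a1*, *Col17a1*, *Col28a1*, *Col15a1* and *Col4a1*, where 3.3% of all genes rose and 3.74% fell. From P21 to P35 no member rose in either genotype. In WT *Col6a6*, *Col5a3*, *Col5a1* and *Col3a1* fell, against 1.4% of all genes rising and 1.05% falling. In KO *Col6a6* (-1.39), *Col4a1* (-1.20), *Col4a2* (-1.14), *Col15a1* (-0.97), *Col5a3* (-0.97), *Col6a2* (-0.68) and *Col6a1* (-0.67) fell, where 2.07% of all genes rose and 1.94% fell. The counts of these later steps moved with single libraries. Without each in turn, they ranged from 0 to 10 for P14 to P21 in WT, 2 to 9 for the same step in KO, 2 to 5 for P21 to P35 in WT and 4 to 11 in KO. The 10 and the 9 came without the WT and the KO P14 replicate 4 and the 11 without KO P35 replicate 2. The 0 came without any 1 of WT P14 replicates 1 to 3 or WT P21 replicates 1 and 4, and the 2 in KO without P14 replicate 2 or P21 replicate 2. In WT from P21 to P35, the count was 2 without P21 replicate 1 or 4 or without P35 replicate 1 or 2. In KO over that step it was 4 without P21 replicate 1 or 3 or without P35 replicate 3 or 4. For P14 to P21 in KO it was 4 without P14 replicate 1 or 3 or P21 replicate 1, and 3 without P21 replicate 4.

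Comparing genotypes, no collagen gene tested was a DEG between KO and WT at P1 or P14. At P1, 0 of 44 members were DEGs by edgeR and 0 by DESeq2, against 0.0442% of all genes tested, and 5 members had an unadjusted *P*-value under 0.05, against 10.9% of all genes. Among these, *Col15a1* was at 176.8, 187.2, 189.4 and 184.4 CPM in WT and at 144.0, 163.2, 157.1 and 107.6 CPM in KO (log2 fold change -0.35, SE 0.121, adjusted *P*=0.34). In 4 members every KO library lay below every WT library at P1, namely *Col5a3*, *Col14a1*, *Col15a1* and *Col18a1*, and in 0 members above, while the groups did not overlap in 8.62% of all genes. At P14, 0 of 42 members were DEGs by edgeR, 0 by DESeq2 and 0 in the replicate block fit, against 0.0318% of all genes, and 1 member had an unadjusted *P*-value under 0.05, against 6.82% of all genes. It was *Col7a1*, with a log2 difference of 0.18 (SE 0.076). None of the 42 members tested had groups that did not overlap at P14, against 4.84% of all genes tested. *Col6a4* and *Col10a1* did not pass the filter on low counts from P14 on and were not compared between genotypes there. Every KO library of *Col10a1* lay above every WT library at P14, P21 and P35, on few counts. WT libraries were at most at 0.0776, 0.0246 and 0.0487 CPM at these ages, and KO libraries at least at 0.0982, 0.0667 and 0.107 CPM.

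At P21, 2 collagen genes were higher in KO, *Col8a1* and *Col7a1*, and *Col6a6* was lower. They were 3 of 42 members tested (7.14%), against 4.67% of all genes, with 3.18% of all genes higher and 1.5% lower. At P35, 5 members were higher, *Col8a1*, *Col19a1*, *Col27a1*, *Col7a1* and *Col4a5*, and 3 were lower, *Col6a6*, *Col4a3* and *Col4a4*. They were 8 of 42 members (19.0%), against 16% of all genes, with 8.49% higher and 7.52% lower. The median log2 fold change of the members was 0.098 at P21 and 0.27 at P35, against 0.008 and 0.035 for all genes. Of the 42 members tested, groups did not overlap in 7 at P21 and 9 at P35, against 24.7% and 39.6% of all genes tested. With library totals in place of TMM, which moved the median of all genes by 0.19 at P21 and 0.40 at P35, 4 members were higher and 0 lower at P21, and 9 were higher and 2 lower at P35. Leaving out each library in turn gave 2 or 3 members at P21, the 2 being *Col8a1* and *Col7a1* without any 1 of WT replicates 1, 2 and 4 or KO replicates 1 and 3. At P35 it gave 4 to 8 members, 8 without KO replicate 2 and 4 without WT replicate 2.

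**Figure D2:**
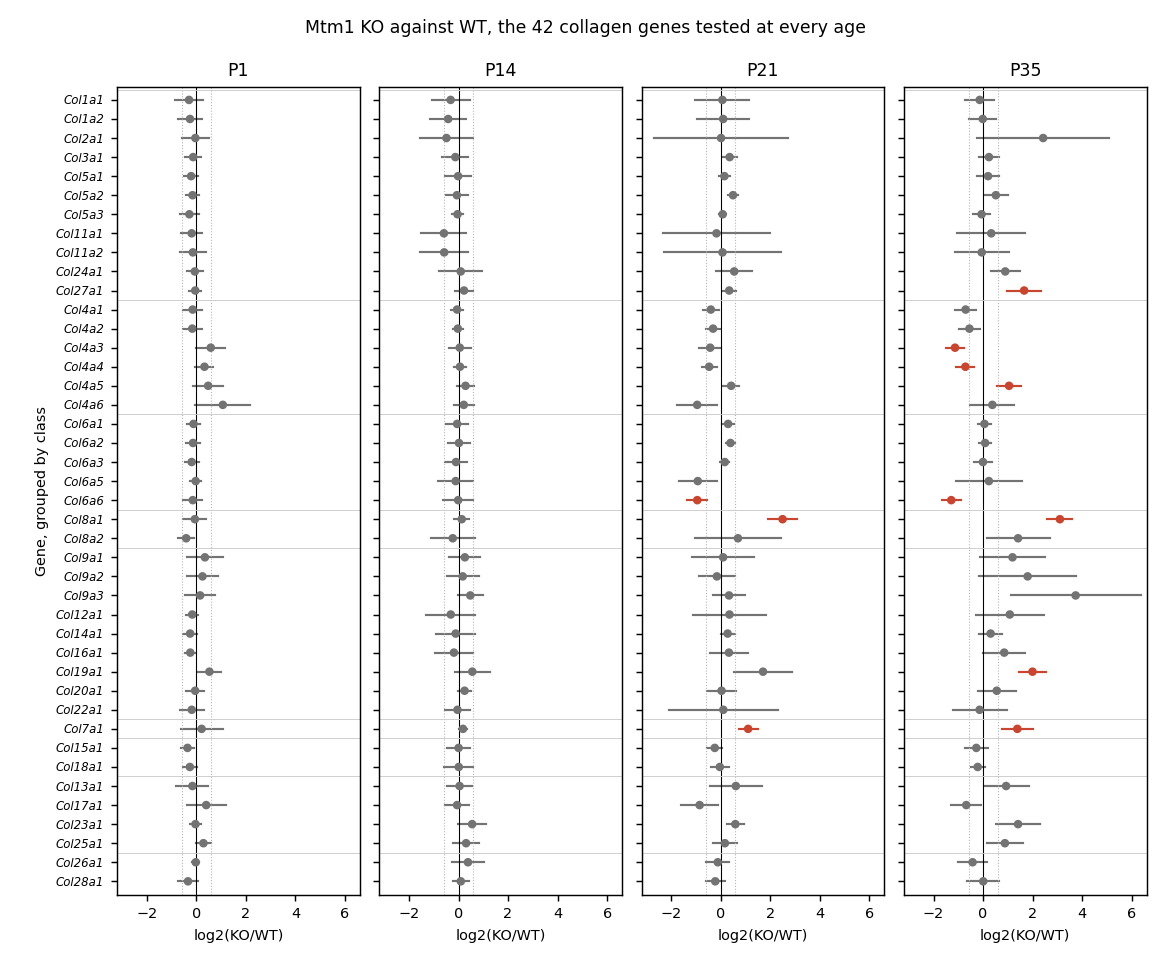
The 42 collagen genes tested at every age are drawn in rows grouped by class, with the log2 fold change of KO against WT (points) and its 95% interval (lines) from edgeR at each age. Red marks DEGs and dotted lines the fold limit of 1.5, and there are 0 red points at P1 and P14, 3 at P21 and 8 at P35.

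*Col8a1* (ENSMUSG00000068196, chr16:57624258-57754737, minus strand) encodes a short-chain collagen of the hexagonal networks found in Descemet's membrane and in blood vessel walls. It was at 14.9, 17.5, 15.1 and 17.1 CPM in WT and at 100.1, 208.4, 122.8 and 113.3 CPM in KO at P35, and at 8.33, 14.6, 16.7 and 18.0 CPM in WT against 64.5, 111.1, 83.2 and 63.2 CPM in KO at P21. Every KO library lay above every WT library at both ages. The log2 fold change was 2.49 at P21 (SE 0.265, 95% interval 1.90 to 3.08, adjusted *P*=5.8e-04 by edgeR) and 3.10 at P35 (SE 0.225, 2.6 to 3.61, adjusted *P*=4.8e-05), or 5.63-fold and 8.58-fold. At P14 WT lay at 11.4 to 16 CPM and KO at 12.9 to 18.4 CPM, and the groups overlapped. The KO effect differed between P21 and P14 by 2.35 on the log2 scale (SE 0.330, adjusted *P*=1.9e-04, edgeR interaction in 1 fit of 32 libraries), the 1 member of 44 to do so, where 0.425% of all genes passed. Between P14 and P1, 0 members passed, against 0.0161% of all genes, and 1 of 44 members had an unadjusted *P*-value under 0.05, against 6.46% of all genes. Between P35 and P21, 0 members passed, against 0.463% of all genes, and 6 of 44 had an unadjusted *P*-value under 0.05, against 17.4% of all genes. DESeq2 found 0 and 1 there. At P21 the *Col8a1* difference was 2.28 to 2.62 without any 1 library. Without KO P35 replicate 2, the P35 library highest in bone and cartilage markers, the P35 difference of *Col8a1* was 2.81. The other type VIII chain, *Col8a2*, was at 2.37 to 8.64 CPM in WT against 7.48 to 36.7 CPM in KO at P35 (1.41, SE 0.567, adjusted *P*=0.071), the highest value again in KO replicate 2.

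*Col7a1* (ENSMUSG00000025650, chr9:108953586-108984875, plus strand), the anchoring fibril collagen that holds skin epidermis to dermis, was at 6.71, 5.46, 5.72 and 3.70 CPM in WT and at 14.0, 11.4, 10.4 and 10.2 CPM in KO at P21. At P35 it was at 4.09, 4.0, 2.85 and 5.40 CPM in WT and at 15.7, 10.2, 6.03 and 9.96 CPM in KO. The groups did not overlap at either age. The log2 fold change was 1.10 at P21 (SE 0.173, adjusted *P*=0.0029 by edgeR) and 1.38 at P35 (SE 0.284, adjusted *P*=0.0041), and the adjusted *P*-value at P35 lay between 0.0127 and 0.0136 without WT replicate 1, 2 or 3. The keratinocyte markers summed to 3.4 to 6.4 CPM at P21 and to 6.0 to 8.1 CPM at P35 over both genotypes. At P1, where those markers were abundant, *Col7a1* was at 19.4 to 49.6 CPM in WT against 16.1 to 49.3 CPM in KO, and the highest value was in WT replicate 3, the library with 7006 CPM of keratinocyte markers.

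*Col19a1* (ENSMUSG00000026141, chr1:24261890-24587472, minus strand) is a FACIT of basement membrane zones that is made in differentiating muscle cells. At P35 it was at 0.80, 0.59, 0.59 and 0.46 CPM in WT and at 2.72, 2.52, 2.67 and 1.68 CPM in KO, with no overlap. The log2 fold change was 2.0 (SE 0.237, 1.46 to 2.53, adjusted *P*=2.9e-04 by edgeR), or 3.99-fold. The WT mean was lower at each later age, 3.64 ± 0.670 (SD, n=4) CPM at P1, then 1.84 ± 0.795, 1.25 ± 0.712 and, at P35, 0.611 ± 0.142 CPM, with no WT age step called. In KO it was 5.2 ± 1.32, 2.72 ± 0.205, 4.06 ± 2.75 and 2.40 ± 0.488 CPM. The KO fall from P1 to P14 was called, a step at which 29.1% of all genes fell. The P21 difference was 1.70 (SE 0.516, adjusted *P*=0.043 by edgeR, 0.0038 by DESeq2 and 0.0086 with the replicate block) with KO replicate 1 at 8.06 CPM, above the other KO libraries at 2.0 to 3.54 CPM.

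*Col27a1* (ENSMUSG00000045672, chr4:63214004-63334991, plus strand) encodes a fibrillar chain of cartilage and developing tissues. At P35 it was at 3.36, 2.53, 3.54 and 2.98 CPM in WT and at 7.51, 16.7, 8.53 and 5.67 CPM in KO, with no overlap and the highest value in KO replicate 2, where the bone and cartilage markers were high. The log2 fold change was 1.66 (SE 0.312, adjusted *P*=0.0027 by edgeR) with that library and 1.24 (adjusted *P*=0.0011) without it, and the adjusted *P*-value was 0.010 without WT replicate 2. The KO effect differed from that at P21 by 1.31 (SE 0.301, adjusted *P*=0.019), which did not pass the limit of 0.01.

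*Col6a6* (ENSMUSG00000043719, chr9:105687809-105828160, minus strand) is one of the type VI chains that can take the place of α3(VI) in the microfibril. It was at 31.7, 25.4, 25.1 and 27.5 CPM in WT and at 14.5, 8.89, 15.2 and 17.8 CPM in KO at P21, and at 12.6, 12.3, 17.1 and 10.6 CPM in WT against 4.21, 5.93, 6.13 and 4.95 CPM in KO at P35. All KO libraries lay below all WT libraries at both ages, and the WT levels themselves fell with age, from 119.6 to 147.5 CPM at P1. On the log2 scale the difference was -0.95 at P21 (SE 0.181, adjusted *P*=0.0068 by edgeR) and -1.28 at P35 (SE 0.172, adjusted *P*=5.0e-04). At P21 the adjusted *P*-value lay over 0.01, between 0.0131 and 0.0224, without any 1 of WT replicates 1 to 4 or KO replicates 1 and 3. The major type VI chains were not called at either age. *Col6a1* was at 198.2, 252.0, 204.2 and 252.9 CPM in WT against 274.6, 244.6, 301.0 and 283.4 CPM in KO at P21, and at 150.1, 165.2, 166.0 and 193.2 against 146.7, 203.7, 173.3 and 164.8 CPM at P35, and the groups overlapped at both ages. At P35 *Col6a1* differed by 0.055 (95% interval -0.20 to 0.31), *Col6a2* by 0.083 (-0.15 to 0.32) and *Col6a3* by -0.0045 (-0.36 to 0.35), and a test of *Col6a6* against these chains was not made. At P21, *Col6a2* was at 203.9, 257.5, 214.9 and 242.1 CPM in WT and at 298.9, 277.3, 307.3 and 309.9 CPM in KO, with a log2 difference of 0.39 (SE 0.085, adjusted *P*=0.012).

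**Figure D3:**
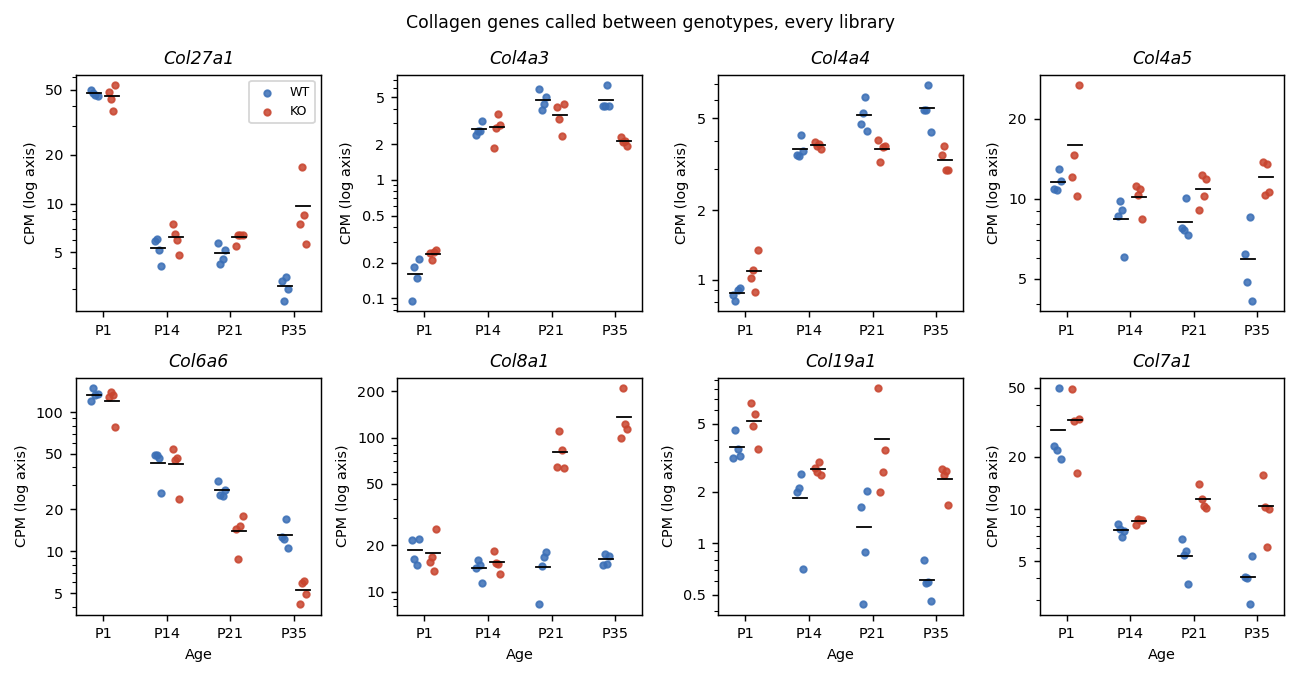
Each panel gives the CPM (log axis) of 1 of the 8 members that were DEGs between genotypes at P21 or P35, with 4 points per genotype and age (WT blue, KO red) and a line at their mean. The genotypes overlap at P14, *Col8a1* stands apart from P21 on, and at P35 the KO points lie above the WT points for *Col27a1*, *Col4a5*, *Col8a1*, *Col19a1* and *Col7a1* and below them for *Col4a3*, *Col4a4* and *Col6a6*.

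The 6 type IV chains lie in head-to-head pairs, *Col4a1* with *Col4a2* on chromosome 8, *Col4a4* with *Col4a3* on chromosome 1 and *Col4a6* with *Col4a5* on chromosome X. The annotated *Col4a1* and *Col4a2* genes overlap by 22 bases, while 71 bases separate *Col4a4* from *Col4a3* and 1308 bases separate *Col4a6* from *Col4a5*. The α1α1α2 trimer is the network of all basement membranes, and the chains α3 to α6 form the networks of specialised ones such as those of the glomerulus and the neuromuscular synapse. Per kb in WT at P35, *Col4a1* was at 95 ± 25.2 (SD, n=4) and *Col4a2* at 59.4 ± 15.1 CPM per kb, *Col4a5* at 0.906 ± 0.294, *Col4a3* at 0.551 ± 0.123, *Col4a4* at 0.546 ± 0.106 and *Col4a6* at 0.0499 ± 0.0166 CPM per kb. *Col4a3* and *Col4a4* did not differ beyond their spread.

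*Col4a3* (ENSMUSG00000079465, chr1:82586921-82722059, plus strand) was at 4.18, 4.19, 6.29 and 4.20 CPM in WT and at 2.29, 2.11, 2.11 and 1.94 CPM in KO at P35. *Col4a4* (ENSMUSG00000067158, chr1:82448423-82586849, minus strand) was at 5.40, 5.41, 6.93 and 4.34 CPM in WT and at 3.47, 3.78, 2.99 and 2.99 CPM in KO. All KO libraries lay below all WT libraries in both genes. The difference, as log2 fold change, was -1.13 for *Col4a3* (SE 0.168, adjusted *P*=8.2e-04 by edgeR) and -0.71 for *Col4a4* (SE 0.163, adjusted *P*=0.0071). The *Col4a4* call did not hold with library totals (log2 fold change -0.31), with the replicate block (-0.70, adjusted *P*=0.015) or without any 1 of WT replicates 1 to 3 or KO replicates 1, 3 and 4 (adjusted *P*-values 0.0141 to 0.0218).

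*Col4a5* (ENSMUSG00000031274, chrX:141475385-141689234, plus strand), which joins α3 and α4 in 1 network and α6 in another, went the other way at P35. It was at 6.21, 4.85, 8.50 and 4.13 CPM in WT and at 13.8, 10.3, 13.5 and 10.6 CPM in KO, with no overlap. On the log2 scale the difference was 1.05 (SE 0.215, adjusted *P*=0.0042 by edgeR), and the adjusted *P*-value was 0.0103 to 0.0146 without WT replicate 1, 2 or 4 or KO replicate 1 or 3. Its neighbour *Col4a6* was at 0.187 to 0.451 CPM in WT against 0.249 to 0.674 CPM in KO at P35. Beside *Col4a5*, the 4 markers of synaptic nuclei (*Chrne*, *Musk*, *Colq* and *Chrna1*) summed to 30.8 to 83.0 CPM in WT and to 133.2 to 277.0 CPM in KO at P35, and the 5 Schwann cell markers to 55.3 to 444.8 and 229.2 to 960.8 CPM. Their part in the *Col4a5* difference was not tested.

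*Col4a1* and *Col4a2*, the abundant pair, were not DEGs by edgeR at any age. At P35 *Col4a1* was at 389.8, 695.7, 655.2 and 773.7 CPM in WT and at 327.6, 403.6, 347.4 and 438.8 CPM in KO, and *Col4a2* at 247.0, 415.5, 394.4 and 476.9 CPM in WT against 220.1, 285.2, 235.4 and 288.1 CPM in KO. WT replicate 1 lay inside the KO range in both genes. The difference, as log2 fold change, was -0.70 for *Col4a1* (SE 0.194, -1.14 to -0.27, adjusted *P*=0.017 by edgeR) and -0.55 for *Col4a2* (SE 0.185, -0.97 to -0.14, adjusted *P*=0.038). *Col4a1* was called at P35 by DESeq2 (-0.72, adjusted *P*=0.0013) and with the replicate block (-0.67, adjusted *P*=0.0079), and *Col4a2* by neither. Without WT replicate 1 they were -0.88 (adjusted *P*=0.0012) and -0.72 (adjusted *P*=0.0029). The same WT library was lowest in the 4 endothelial markers, which summed to 310.5, 526.3, 555.8 and 584.9 CPM in WT against 298.0, 310.2, 269.0 and 339.2 CPM in KO. The 4 pericyte and smooth muscle markers summed to 1005 to 1376 CPM in WT against 797.6 to 912.3 CPM in KO. *Col15a1*, of the same basement membrane zones, was at 257.9, 260.2, 357.0 and 224.1 CPM in WT against 223.2, 240.3, 242.4 and 216.3 CPM in KO at P21, and at 87.4, 146.6, 163.7 and 175.5 against 93.5, 134.2, 107.0 and 131.6 CPM at P35 (-0.27, SE 0.205, adjusted *P*=0.31 by edgeR), overlapping at both ages. Of the endothelial markers, *Cdh5* and *Tie1* were lower in KO at P35. Their part in the *Col4a1* and *Col4a2* values was not tested.

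**Figure D4:**
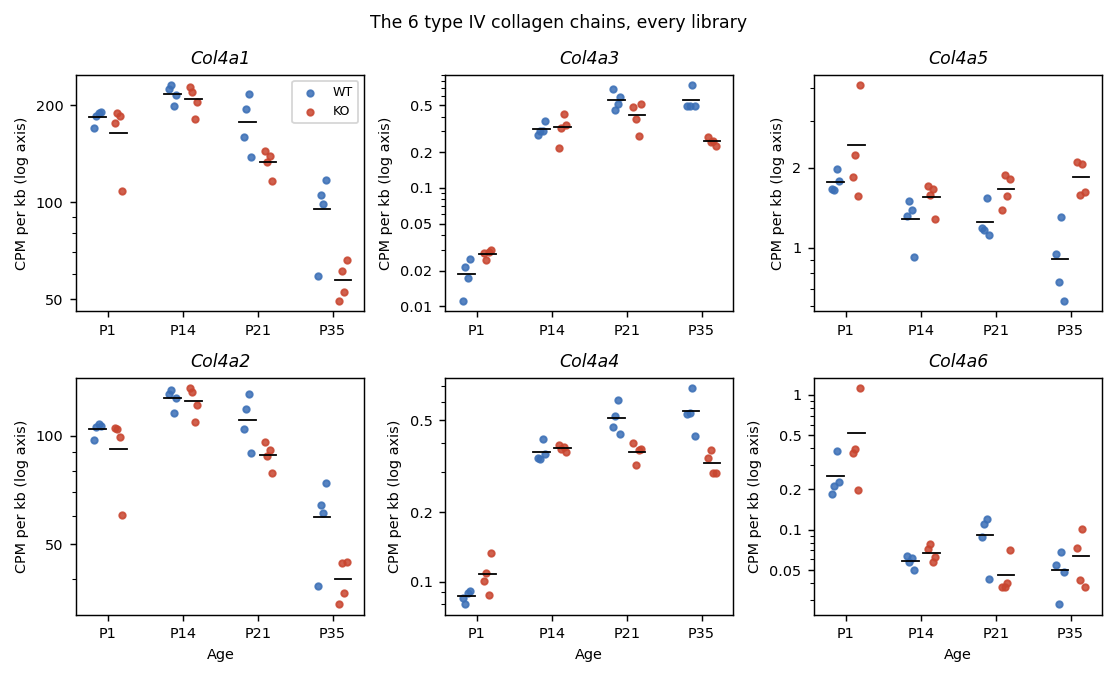
CPM per kb of main transcript (log axis) of the 6 type IV chains is plotted for every library by age, with WT in blue, KO in red and a line at each mean. *Col4a3* and *Col4a4* lie far below their later levels at P1, *Col4a1* and *Col4a2* are lowest at P35, and at P35 the KO points lie below WT for *Col4a3* and *Col4a4* and above WT for *Col4a5*.

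The ratio of *Col4a1* to *Col4a2* per kb, chains that are needed in a 2 to 1 ratio in their trimer, was 1.76 ± 0.020 (SD, n=4) in WT and 1.78 ± 0.080 in KO at P1 and 1.59 ± 0.042 and 1.44 ± 0.044 at P35. At P35 the ratio was 1.54 to 1.63 in WT libraries and 1.38 to 1.49 in KO libraries, which did not overlap. Nor did they at P14, at 1.69 to 1.72 in WT and 1.66 to 1.68 in KO, while at P21 the ranges met, at 1.52 to 1.66 and 1.47 to 1.52. The ratio of *Col1a1* to *Col1a2* per kb was 1.03 ± 0.067 in WT at P1 and 0.796 ± 0.046 in WT and 0.735 ± 0.028 in KO at P35, and the genotypes overlapped. That of *Col6a1* to *Col6a2* stayed between 0.85 and 1.05 in all 32 libraries. That of *Col1a1* to *Col3a1* varied most within groups, from 0.516 to 1.53 among WT and from 0.423 to 1.87 among KO libraries at P21.

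The major fibrillar chains were not DEGs between genotypes at any age. At P35 *Col1a1* was at 1663, 2088, 924 and 1811 CPM in WT and at 1371, 2019, 1248 and 1157 CPM in KO, *Col1a2* at 2015, 2259, 1082 and 1953 CPM in WT against 1774, 2435, 1535 and 1370 CPM in KO, and *Col3a1* at 1208, 1290.0, 1583 and 1418 CPM in WT against 1127, 2102, 1609 and 1535 CPM in KO. The groups overlapped in all of these genes. On the log2 scale the difference was -0.14 for *Col1a1* (95% interval -0.71 to 0.44), -0.013 for *Col1a2* (-0.56 to 0.54) and 0.24 for *Col3a1* (-0.16 to 0.64). At P21 *Col1a1* was at 1096, 2742, 1153 and 3307 CPM in WT against 1337, 1168, 4330.0 and 1747 CPM in KO (0.064, interval -1.02 to 1.15). The high WT replicates 2 and 4 and KO replicate 3 were also the libraries with the highest tenocyte marker sums.

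*Col5a2*, a chain of the type V collagen that sets fibril diameter, was the fibrillar chain nearest to a call at P21. It was at 132 to 162 CPM in WT against 196 to 224 CPM in KO, with no overlap and an adjusted *P*-value of 0.0040 by edgeR, but its log2 fold change of 0.49 (SE 0.083) was under the fold limit. At P35 it differed by 0.52 (SE 0.214, adjusted *P*=0.079). *Col3a1* differed by 0.36 at P21 (0.070 to 0.64, adjusted *P*=0.077). Beside these, the 6 markers of fibro-adipogenic progenitors and fibroblasts summed to 249.2 to 319.2 CPM in WT against 353.1 to 448.2 CPM in KO at P21, and to 235.1 to 320.4 and 346.0 to 521.1 CPM at P35, with no overlap at either age. *Mfap5* was the only 1 of the 6 called between genotypes. Without *Mfap5*, a choice made after seeing the data, the sums were 220.3 to 281.4 CPM in WT against 276.8 to 381.7 in KO at P21. At P35 they were 211.5 to 288.2 CPM in WT against 282.4 to 413.9 CPM in KO. The groups then overlapped at both ages. The lowest KO sum minus the highest WT sum was -4.58 CPM at P21 and -5.81 CPM at P35. No other marker was left out. The part of those cells was not tested.

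The FACITs of tendon and the myotendinous junction and the cartilage fibril chains varied widely between libraries of the same group. *Col12a1*, a FACIT of tendon and fascia, was at 8.01, 38.7, 15.7 and 64.1 CPM in WT against 20.6, 26.9, 89.6 and 22.2 CPM in KO at P21. *Col22a1*, a FACIT of the myotendinous junction, was at 2.01, 48.8, 9.98 and 90.4 CPM in WT against 18.1, 17.7, 108 and 15.9 CPM in KO. In both genes WT replicates 2 and 4 and KO replicate 3 were highest, as they were in tenocyte markers. *Col2a1* was at 2.33 to 115 CPM in KO at P35, the 115 CPM in replicate 2, and at 2.94 to 8.29 CPM in WT. The difference, as log2 fold change, was 0.10 for *Col22a1* at P21 (95% interval -2.10 to 2.31), 0.35 for *Col12a1* at P21 (-1.12 to 1.82) and 2.43 for *Col2a1* at P35 (-0.25 to 5.10).

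**Figure D5:**
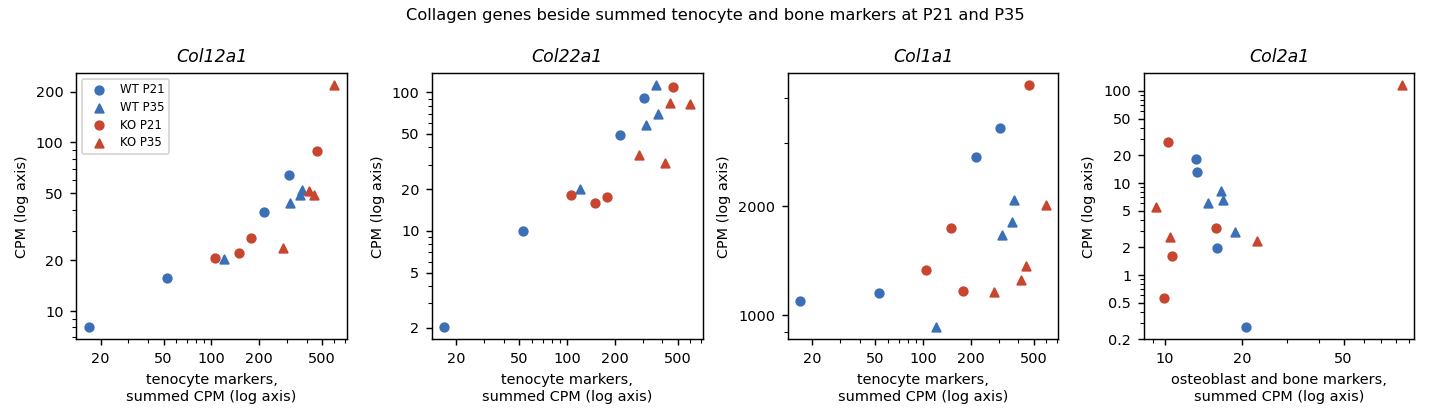
Each point is 1 of the 16 libraries at P21 (circles) and P35 (triangles), WT in blue and KO in red, with the summed CPM of 5 tenocyte markers or 6 osteoblast and bone markers on the horizontal axis and the CPM of 1 collagen gene on the vertical axis, both on log scales. *Col12a1* and *Col22a1* run upwards from their lowest values, at a tenocyte sum of 16.8 CPM. The highest *Col12a1* value, 218 CPM, lies at the highest sum, 599.2 CPM, of which *Thbs4* alone was 504.4 CPM. The highest *Col22a1* value, 112 CPM, lies at 365.5 CPM. The single point at top right for *Col2a1* is KO P35 replicate 2.

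The transmembrane collagens were not called between genotypes by edgeR. *Col23a1* was at 6.28, 2.62, 7.41 and 2.31 CPM in WT and at 10.3, 16.3, 14.2 and 7.86 CPM in KO at P35, with no overlap, and the difference was 1.41 on the log2 scale (SE 0.389, adjusted *P*=0.017 by edgeR). It was called at P35 by DESeq2 (1.39, adjusted *P*=7.1e-04), with library totals, with no filter on low counts and with the replicate block, and at P21 with library totals. *Col24a1*, a fibrillar chain, differed by 0.90 at P35 (SE 0.260, adjusted *P*=0.021) and was called by DESeq2 (adjusted *P*=0.0029) and with library totals. *Col25a1*, which is needed for motor axons to enter muscle, differed by 0.88 (SE 0.319, adjusted *P*=0.050), and *Col13a1*, a component of the neuromuscular junction, by 0.93 (SE 0.403, adjusted *P*=0.091). *Col17a1* differed by -0.68 (SE 0.272, adjusted *P*=0.069). *Col20a1* overlaps another annotated gene on its own strand, so its counts, which gave a difference of 0.55 (SE 0.342, adjusted *P*=0.22), are uncertain. Apart from *Col4a1* and *Col23a1*, given above, every other member tested at P35 and not called had an adjusted *P*-value over 0.02 by edgeR. They included *Col9a3* (3.74, SE 1.17, adjusted *P*=0.028), which was at 9.34 CPM in KO replicate 2 and at 0.249 to 0.684 CPM in the other KO libraries.

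Genes that make, process or bind collagens were followed as 4 lists. Of all genes tested, 3.18% were higher and 1.5% lower in KO at P21, and 8.49% and 7.52% at P35. Of 23 genes of collagen synthesis in the endoplasmic reticulum, 0 were DEGs at any age. The median log2 fold change of these genes was 0.11 at P21 and 0.22 at P35. *Tmem38b*, an ion channel of the endoplasmic reticulum, was at 81.8 ± 8.68 (SD, n=4) CPM in WT against 117 ± 8.31 in KO at P35 (0.54, adjusted *P*=0.0018 by edgeR), *Ppib*, a prolyl isomerase, differed by 0.37 (adjusted *P*=0.0081) and *P4ha2*, a prolyl 4-hydroxylase subunit, by -0.54 (adjusted *P*=0.013), all within the fold limit. *Plod2*, which hydroxylates telopeptide lysines, differed by 0.67 at P21 (adjusted *P*=0.012).

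Of 12 processing and cross-linking genes tested, 1 was higher and 0 lower at both P21 and P35. It was *Loxl1*, a lysyl oxidase, at 29.3 ± 4.75 CPM in WT against 52.5 ± 1.78 in KO at P21 (0.85, SE 0.117, adjusted *P*=0.0016 by edgeR) and at 19.2 ± 1.19 and 39.8 ± 12.9 CPM at P35 (1.08, SE 0.196, adjusted *P*=0.0022). *Pcolce*, an enhancer of procollagen C-propeptide removal, differed by 0.58 at P21 (adjusted *P*=0.011) and by 0.41 at P35 (adjusted *P*=0.0082), and *Lox* by 1.24 at P35 (SE 0.379, adjusted *P*=0.026). Of 16 fibril-associated proteins, 2 were higher and 0 lower at both ages, the proteoglycan *Bgn* (0.94 and 0.83) and periostin, *Postn* (1.07 and 1.58). *Postn* was at 93.5 ± 24.7 CPM in WT against 195 ± 35.5 in KO at P21 and at 84.9 ± 29.7 and 249.1 ± 137.9 CPM at P35. Of 10 collagen receptors tested, *Ddr1* (0.63) and *Mrc2* (0.59) were higher and 0 genes lower at P21. At P35 *Mrc2*, the collagen uptake receptor, was higher (0.73, adjusted *P*=0.0012), and *Itga1*, the integrin α1 chain that binds type IV collagen, was lower, at 67.4 ± 12.2 CPM in WT against 35.7 ± 4.47 in KO (-0.89, SE 0.141, adjusted *P*=0.0011), as was *Adgrg1*, a receptor of type III collagen (-0.92, SE 0.145, adjusted *P*=0.0011). These counts stand beside the 3.18% of all genes higher and 1.5% lower at P21, and the 8.49% and 7.52% at P35. With lists of 10 to 16 genes tested, a difference from those shares was not tested. In none of the 4 lists was a gene called at P1 or P14, against 0.0442% and 0.0318% of all genes.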

How the data were processed

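Strand-specific poly(A) libraries were read from both ends, and the authors deposited 1 table of expected counts with genes in rows and libraries in columns. The submitters' processing notes name STAR 2.6.1, RSEM 1.2.22, DESeq2 and GRCm38, and the methods also name HTSeq and edgeR. The annotation release and the use of strand in counting were not given in the sources used here. Replicates were not pooled or scaled, and 0 columns of values were left unused. Of the values, 4.26% were not whole. Expected counts in the deposited table spread reads that match several genes, so levels of overlapping genes are estimates. Totals of 49321035 to 85631408 counts per library set the precision of low genes. Without molecular identifiers, PCR copies count as molecules.

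Genotype, age and replicate came from the labels, and the methods give n=4 WT and KO muscles at P14, P21 and P35. They do not cover P1, where separate mice were assumed. Where replicates are not separate mice, *P*-values measure only the spread between these samples. Expected counts were rounded and fitted with edgeR 4.0.16 in R 4.3.3 (filterByExpr, TMM, glmQLFit and glmQLFTest, two-sided, Benjamini-Hochberg over all genes tested), and DEGs needed an adjusted *P*-value below 0.01 with a change of over 1.5-fold in either direction. Each comparison used the 2 groups compared, and interactions used 1 fit of 32 libraries at an adjusted *P*-value under 0.01. CPM in the text used TMM over all 32 libraries. CPM per kb used the length of the main protein-coding transcript in GENCODE (GRCm38), which gave a symbol to 54809 of 54838 genes, matched by identifier. No pair of libraries agreed within sampling noise. The fit was tested on simulated data. Alternatives were DESeq2 1.42.0, its size factors (RLE), library totals, no filter, an adjusted *P*-value under 0.05 at any fold, all libraries in 1 fit (for interactions, only the libraries of the 2 ages), a replicate block and leaving out each library. At P14 same-numbered WT and KO libraries deviated together (r=0.252, 0.29, 0.19 and 0.588 over genes). The rule used for pairing, that every pair exceed 0.1, was met there and at no other age. WT and KO libraries of different numbers were not compared, so the rule cannot show that the samples were paired. Other steps used python 3.11.15 with pandas 2.3.3, numpy 2.4.6 and matplotlib 3.10.9.

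Values in every library are given for members called between genotypes at any age and for the 8 most abundant members per kb (at some ages, in part as ranges), with the 3 genes of smallest adjusted *P*-value from each related list. The collagen genes, the related lists and the marker lists were chosen with earlier results of these data known.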

Additional observations from a re-analysis of the deposited data

Results flagged for a closer look

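In groups of 4 libraries, the highest or lowest library was set against the others for 24 members in 8 groups, by Dixon's ratio of gap to range at its 95% critical value. The 16 members named by rule held such a library in 11 of 128 groups. Chance flags about 1 in 20 where values are independent and normal. Some of these members were flagged in the same library, as *Col4a1*, *Col4a2* and *Col6a6* were in KO P1 replicate 4. The rate of 1 in 20 is therefore not a strict standard here. The other 8 (*Col2a1*, *Col6a4*, *Col9a3*, *Col10a1*, *Col11a1*, *Col12a1*, *Col17a1* and *Col22a1*) were added after their values were seen, so their 15 of 64 groups cannot be set against chance. Over all 44 members it was 44 of 352 groups.

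In KO P35 replicate 2, *Col2a1* was at 115 CPM (others at most 5.48), *Col9a3* at 9.34, *Col10a1* at 19.1 (others at most 0.398) and *Col12a1* at 218 CPM (others at most 51.7). The bone and chondrocyte markers were also highest there among P35 libraries, and their part was not tested. In KO P21 replicate 3, *Col2a1* was at 28.1, *Col11a1* at 49.6, *Col12a1* at 89.6 and *Col22a1* at 108 CPM (others of *Col22a1* at most 18.1), beside the highest tenocyte sum at P21. In KO P1 replicate 4, *Col4a1* at 719, *Col4a2* at 389, *Col6a6* at 77.9 and *Col22a1* at 32.8 CPM were low and *Col6a4* at 5.74 CPM was high (others at most 0.841). Endothelial markers, at 258.8 CPM, were lowest in the same library.

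The *Col10a1* values outside P1 and KO P35 replicate 2 rest on at most 68 counts, and the gene lies inside *Nt5dc1* on the other strand, with the use of strand in counting not given.

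In WT P1 replicate 3, *Col7a1* was at 49.6 and *Col17a1* at 52.3 CPM, beside the highest keratinocyte sum. In WT P1 replicate 1, *Col10a1* was at 37.3 CPM. In WT P14 replicate 4, *Col6a1* at 207, *Col6a2* at 198 and *Col6a6* at 26.4 CPM were low. In WT P14 replicate 2, *Col9a3* was at 0.692 CPM. The other such values were *Col4a5* at 10.1 CPM in WT P21 replicate 3, *Col4a3* at 6.29 and *Col10a1* at 0.0237 CPM in WT P35 replicate 3, *Col7a1* at 8.13 CPM in KO P14 replicate 1, and *Col27a1* at 5.50 and *Col10a1* at 1.54 CPM in KO P21 replicate 1.

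The KO effect on *Col8a1* differed between P21 and P14 by 2.35 on the log2 scale (edgeR interaction, adjusted *P*=1.9e-04). It was 1 of 3 differences between adjacent ages examined for each member.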

How the results depend on the processing

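The count of collagen genes called moved by over 1.5 times in some alternatives. At an adjusted *P*-value under 0.05 and any fold, it was 8 at P21 and 14 at P35 between genotypes, 11 (WT) and 12 (KO) for P14 to P21 and 13 in either genotype for P21 to P35, and 1 member had a KO effect that differed between P35 and P21. DESeq2 called 6 for P14 to P21 in WT, 9 in WT and 12 in KO for P21 to P35, and 1 for the difference between P35 and P21. With all 32 libraries in 1 fit, 13 were called at P35 between genotypes, 7 for P21 to P35 in WT and 12 in KO. With the replicate block the counts were 0 in WT and 1 in KO for P14 to P21 and 2 in WT and 3 in KO for P21 to P35. The numbers do not pair libraries of different ages, with correlations from -0.234 to 0.231, and beside *Col19a1* at P21 and *Col4a1* and *Col23a1* at P35, which passed with the block, and *Col4a4* at P35, which did not, it changed no other call between genotypes among the members called at any age and the 8 most abundant. RLE scaling, library totals and no filter kept all counts within 1.5 times. Leaving out each library gave 0 to 0 members between genotypes at P1 and P14. The range was 2 to 3 for P21 and 4 to 8 for P35. For age steps it gave 36 to 37 (WT) and 34 to 36 (KO) for P1 to P14, 0 to 10 and 2 to 9 for P14 to P21, and 2 to 5 and 4 to 11 for P21 to P35. For differences of the KO effect it gave 0 to 0, 1 to 1 and 0 to 1 members over the 3 pairs of adjacent ages, the last 1 without KO P35 replicate 4. *Col6a6* at P21 did not pass with library totals (log2 fold change -0.75). With n=4, members under about 1 CPM, such as *Col4a6* and *Col6a5*, were measured least precisely, and no cause of the moves was tested.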
